A study of Danio rerio with 6 samples.

Results

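Hormone genes of the enteroendocrine cells and tph1b, which encodes the enzyme that starts serotonin synthesis, were examined in guts dissected from 5-dpf (days post-fertilization) zebrafish larvae. The genes were chosen by symbol and were insl5a, insl5b, gcga, gcgb, ccka, ghrl, pyyb, penka, adcyap1a and tph1b. Of these 10 genes, 9 matched a row among the 15419 genes of the count table. After the filter on low counts, 8 could be tested. The gene ccka, which encodes the gallbladder-contracting hormone cholecystokinin, was not analysed here. The WT group had 3 bulk mRNA libraries from wild-type guts, and the study's methods give AB as its wild-type line. The il26KO group had 3 libraries from guts of the IL-26 knockout line, made with CRISPR/Cas9 in the gene for IL-26, an IL-10 family cytokine. Each library was a pool of 10 to 15 guts, with no treatment given in the labels. The adult parents of both genotypes were clutchmates kept in separate tanks, so a tank difference and the genotype cannot be told apart. The labels call the libraries biological replicates without naming clutches, so p-values measure the spread between these pools.

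Enteroendocrine cells are scattered secretory cells of the gut epithelium that sense nutrients and other luminal signals and release peptides or serotonin. They arise from the same epithelial progenitors as enterocytes and goblet cells, and single subtypes make different sets of hormones. Several of the same peptides are also made outside the gut epithelium. Glucagon, somatostatin and ghrelin are islet hormones as well, and PACAP and enkephalins are also neuropeptides. In these bulk libraries, fewer cells of a type and less RNA per cell cannot be told apart.

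The libraries held 15693057 to 28303340 counts. The enterocyte marker list, with 15 of its 18 genes found, took 6.37% to 7.55% of the counts of a library, and the acinar pancreas list, with 19 of 20 found, took 3.99% to 6.36%. The dissected tissue therefore carried exocrine pancreas RNA in all 6 libraries. Both il26, the targeted gene, and ins, the defining marker of islet beta cells, were listed at 0 counts in every library. The genotype labels could thus not be checked from il26. A count of 0 in this table does not show that a gene was silent. The muscle genes pvalb2, ckma and mylpfa had 0, 1 and 2 counts over the 6 libraries, while pvalb1 and ckmb, of the same list, had 20133 and 32627. The annotation and the treatment of reads shared by several genes were not given in the sources used here, and their part in these values, and in those of il26 and ins, was not tested.

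Transcripts of 8 of the 9 genes, tph1b included, were found in every library, and the remaining gene, insl5a, was close to absent. The level of a gene is given as CPM, its counts per 1000000 counts of a library, with library sizes corrected by TMM (trimmed mean of M-values). The 9 genes together took 0.0243% to 0.0280% of the counts of a library. Their summed level was 262 to 272 CPM in the WT libraries and 244 to 264 CPM in the il26KO libraries, so the groups overlapped. No transcript lengths were used here, and CPM values were therefore compared between libraries and not between genes.

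No gene of the group passed the test between genotypes. Across the whole table, 12 of 11095 tested genes (0.108%) were called by the edgeR quasi-likelihood test at a Benjamini-Hochberg adjusted p under 0.05, and 0 of the 8 tested hormone and tph1b genes were. DESeq2 and the edgeR likelihood ratio test also called 0 of the 8. At an unadjusted p-value below 0.05 there were 2 of the 8, tph1b lower and pyyb higher in il26KO. The share over all tested genes was 6.03%, with 2.51% lower and 3.52% higher. The libraries of the genotypes did not overlap for the same 2 genes, against 10.9% of all tested genes (4.91% with il26KO lower and 5.94% with il26KO higher). The log2 fold change of il26KO over WT was negative for 5 of the 8 genes and for 46.8% of all tested genes. Its median was -0.11 over the 8 genes and 0.011 over all tested genes.

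**Figure D1:**
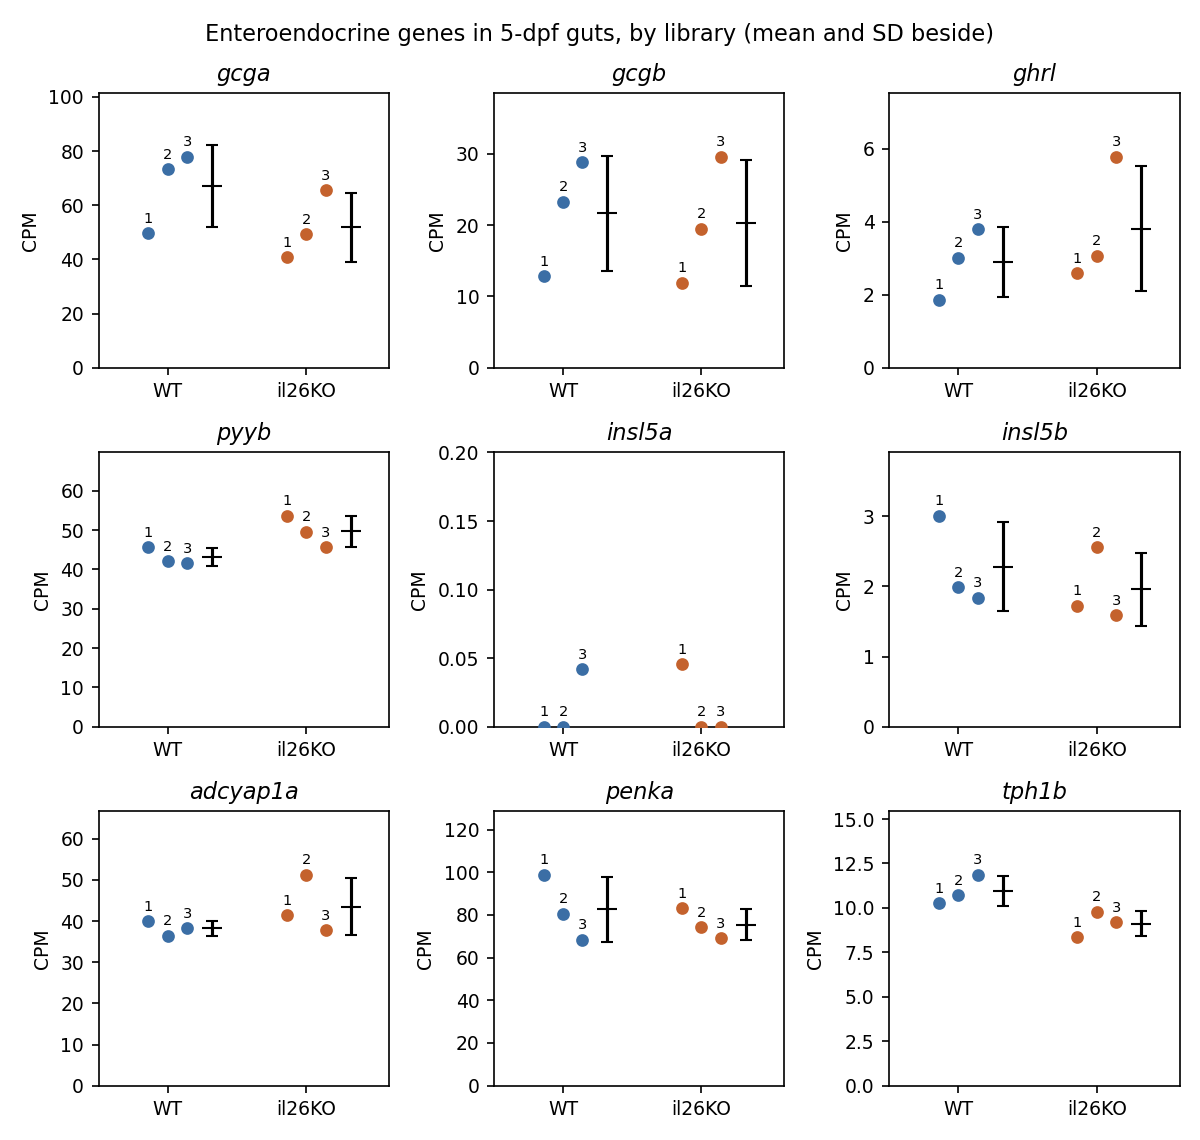
Level of each detected gene in CPM (vertical axis, starting at 0, with its own scale in each panel) in the WT and il26KO libraries. Points are libraries with their replicate numbers, and bars beside them are the mean and SD of 3 libraries (left out for insl5a, with 2 counts in all). The genotypes stand apart in the panels of pyyb, by a margin that depends on the scaling of library sizes, and of tph1b, with il26KO higher in the first and lower in the second.

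The gene tph1b encodes a tryptophan hydroxylase, which catalyses the rate-limiting step of serotonin synthesis. It had 253, 291 and 284 counts in WT replicates 1, 2 and 3, or 10.3, 10.7 and 11.9 CPM. In il26KO replicates 1, 2 and 3 it had 184, 153 and 261 counts, or 8.35, 9.78 and 9.20 CPM. All 3 il26KO libraries lay below all 3 WT libraries, and the nearest libraries of the groups were 0.499 CPM apart, or 0.266 CPM with library sizes not scaled by TMM. WT libraries averaged 11.0 ± 0.820 CPM and il26KO libraries 9.11 ± 0.717 CPM (SD, n = 3 each). This gave a log2 fold change of -0.27 ± 0.11 (SE), a 0.831-fold level with a 95% interval of 0.702 to 0.983. The edgeR p-value was 0.0344 before adjustment and 0.785 after adjustment over all tested genes, so the difference did not pass. The study lists tph1b among its changed genes from these libraries, and the gene was chosen with that known. The main text of the study gives no threshold for that list, so the listing and the test here may rest on different rules. The unadjusted p-value stayed below 0.05 in 2 of the 6 edgeR fits that left out a library, those without WT replicate 1 and without il26KO replicate 2. Over all 6 it ranged from 0.0251 to 0.103, with the highest value without WT replicate 3.

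Counting error was of the same size as the spread of tph1b. The coefficient of variation between libraries was 7.49% in WT and 7.86% in il26KO, and the counts alone would give 6.03% and 7.26%. The paralogs tph1a and tph2, which encode the same enzyme activity, had 1 to 9 and 5 to 13 counts per library. With so few counts, neither passed the filter on low counts. The levels of tph2 were 0.184 to 0.325 CPM in WT and 0.409 to 0.458 CPM in il26KO, with all il26KO libraries above all WT libraries, the opposite direction to tph1b. The test of tryptophan hydroxylase genes between genotypes was thus limited to tph1b.

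The gene pyyb encodes a peptide YY, a hormone that slows gut transit and lowers food intake in mammals. It had 1125, 1142 and 993 counts in WT replicates 1, 2 and 3, or 45.7, 42.1 and 41.5 CPM. In il26KO replicates 1, 2 and 3 it had 1181, 776 and 1296 counts, or 53.6, 49.6 and 45.7 CPM. All il26KO libraries were above all WT libraries, but the lowest il26KO library exceeded the highest WT library by 0.00341 CPM, less than the 0.0406 CPM that 1 count is worth in that WT library. With library sizes not scaled by TMM, the same groups stood 1.25 CPM apart. WT libraries averaged 43.1 ± 2.29 CPM and il26KO libraries 49.6 ± 3.96 CPM (SD, n = 3 each). On the log2 scale the difference was 0.20 ± 0.085 (SE), a 1.15-fold level with a 95% interval of 1.01 to 1.32. The edgeR p-value was 0.0438 before and 0.815 after adjustment. The unadjusted value was above 0.05 with median-of-ratios (RLE) size factors (0.0578) and without the filter on low counts (0.0521), and ranged from 0.0227 to 0.194 in edgeR fits without single libraries, highest without il26KO replicate 1. Its paralog pyya had 0 to 3 counts per library.

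**Figure D2:**
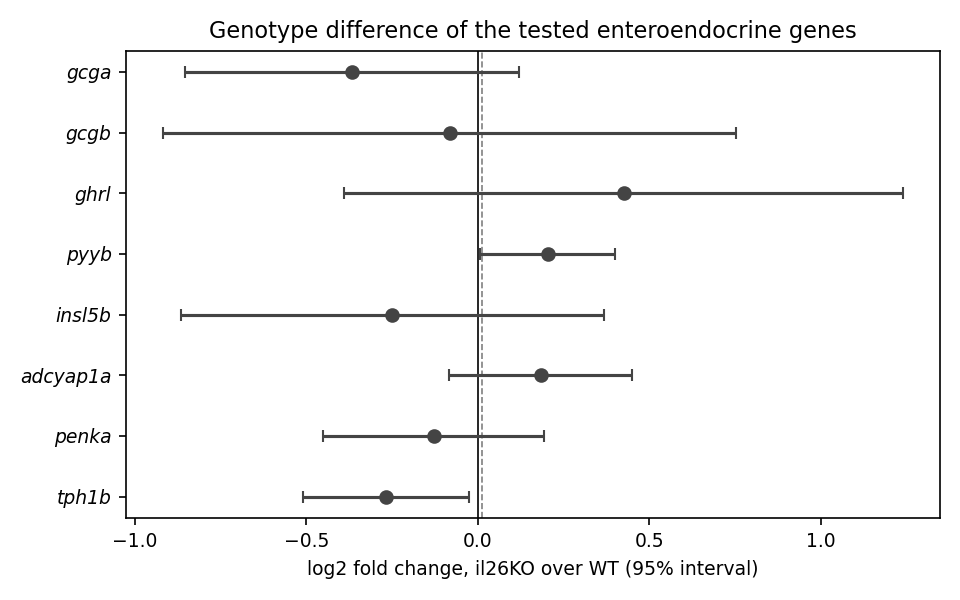
Log2 fold change of il26KO over WT (horizontal axis) for the 8 tested genes, with 95% intervals from the edgeR quasi-likelihood fit of 3 libraries against 3. The solid line marks no difference and the dashed line the median of all tested genes (0.011). The intervals of tph1b and pyyb leave out 0 before adjustment, and those of gcgb, ghrl and insl5b are the widest.

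The glucagon genes varied more between libraries of a genotype than between genotypes. Both gcga and gcgb encode proglucagon, from which glucagon and glucagon-like peptides are cut. WT replicates 1, 2 and 3 had 49.6, 73.3 and 77.9 CPM of gcga (1222, 1991 and 1864 counts). il26KO replicates 1, 2 and 3 had 40.7, 49.2 and 65.6 CPM (896, 770 and 1861 counts). The groups overlapped, with il26KO replicate 3 above WT replicate 1. On average WT had 66.9 ± 15.2 CPM of gcga and il26KO had 51.8 ± 12.7 CPM (SD, n = 3 each). Its fitted log2 fold change was -0.37 ± 0.21 (SE; adjusted p = 0.884 by edgeR), and the 95% interval ran from a 0.553-fold to a 1.09-fold level. This was the largest negative log2 fold change of the 8 genes, and its unadjusted edgeR p-value was 0.121. The unadjusted value was 0.0181 without WT replicate 1 and 0.0267 without il26KO replicate 3, with adjusted values of 0.536 and 0.856. With replicate number as a block it was 0.00935, with an adjusted value of 0.670. The labels do not say whether same-numbered libraries were paired, so this block has no stated basis.

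For gcgb, WT replicates 1, 2 and 3 had 12.8, 23.3 and 28.8 CPM (315, 633 and 689 counts). il26KO replicates 1, 2 and 3 had 11.9, 19.5 and 29.6 CPM (262, 305 and 839 counts). The groups covered almost the same range. WT libraries averaged 21.6 ± 8.13 CPM and il26KO libraries 20.3 ± 8.87 CPM (SD, n = 3 each), for a log2 fold change of -0.082 ± 0.36 (SE; adjusted p = 0.986 by edgeR). The interval, from a 0.529-fold to a 1.69-fold level, leaves room for a sizeable difference in either direction. The direction turned without WT replicate 3 (0.18) and without il26KO replicate 1 (0.18). Depth was not the limit for this gene. The coefficient of variation was 37.6% in WT and 43.7% in il26KO, and the counts alone would give 4.55% and 5.26%.

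The ratio of gcga to gcgb counts, which does not depend on the depth of a library, was 3.88, 3.15 and 2.71 in WT replicates 1, 2 and 3. It was 3.42, 2.52 and 2.22 in il26KO replicates 1, 2 and 3. In both genotypes the ratio was highest in the library with the least gcgb. Since gcgb is the denominator of the ratio, this is not a separate observation. The groups overlapped, with means of 3.24 ± 0.593 and 2.72 ± 0.624 (SD, n = 3 each).

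The gene ghrl encodes ghrelin, a peptide that stimulates feeding in mammals. It had 1.87, 3.02 and 3.80 CPM in WT replicates 1, 2 and 3, from 46, 82 and 91 counts. il26KO replicates 1, 2 and 3 had 2.59, 3.07 and 5.78 CPM, from 57, 48 and 164 counts. A single library, il26KO replicate 3, was above all the others. The fitted log2 fold change was 0.42 ± 0.35 (SE; adjusted p = 0.910 by edgeR), with an interval from a 0.763-fold to a 2.36-fold level. Without il26KO replicate 3 the direction turned, to a log2 fold change of -0.042.

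The levels of gcga, gcgb and ghrl were next set beside those of other peptide hormones that islets and enteroendocrine cells share. This comparison was chosen after the values had been seen, and it is a description. The 3 libraries lowest in gcga were WT replicate 1, il26KO replicate 1 and il26KO replicate 2, and the same 3 libraries were lowest in gcgb. They were also lowest in sst1.1 and sst2, which encode somatostatins, and in gip, which encodes an incretin. Of all tested genes, 6.07% had these 3 libraries lowest. The lowest level of sst1.1 was 11.7 CPM, in il26KO replicate 1, and the highest was 36.9 CPM, in il26KO replicate 3. For sst2 the lowest was 8.21 CPM, in WT replicate 1, and the highest 34.8 CPM, in WT replicate 3. The order was not the same for ghrl, where WT replicate 2 was marginally below il26KO replicate 2. Neither pyyb, adcyap1a, penka, tph1b nor insl5b had these 3 libraries lowest. Among the other lists, the same 3 libraries were lowest in 3 of 11 tested enteroendocrine transcription factor genes (nkx2.2a, isl1 and insm1a). The rest of the 11, neurod1 and arxa among them, had other libraries lowest. Of 7 sensory channel and receptor genes, 3 (casr, abcc8 and cacna1da) were lowest in the same 3 libraries as gcga. These libraries were also lowest in 2 of 3 tested genes of the islet beta cell list (pdx1 and nkx6.2). They were lowest in 5 of 8 liver genes as well (apoa2, fgb, fgg, serpina1 and ambp). The count was 0 in the hormone processing, serotonin handling, receptor, acinar, enteric neuron, enterocyte, goblet and best4 cell, and skeletal muscle lists.

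The spread of the glucagon genes thus ran across both genotypes. Their 3 lowest libraries were shared by some hormone genes of islet and gut cells, some genes of the islet beta cell list and 5 of 8 liver genes. The summed liver level was lowest in WT replicate 1 (8304 CPM), il26KO replicate 2 (10611 CPM) and il26KO replicate 3 (13344 CPM). In il26KO replicate 1 it was 13710 CPM, so the liver sum did not have the same 3 libraries lowest. The other tested gene of the islet beta cell list was nkx6.1. It was lowest in il26KO replicates 1 (0.726 CPM) and 3 (0.952 CPM) and in WT replicate 1 (0.975 CPM). The islet beta cell list, of which 7 of 9 genes were found and 3 tested, had a summed level of 15.639, 24.637 and 23.313 CPM in WT replicates 1, 2 and 3. In il26KO replicates 1, 2 and 3 it was at 19.024, 20.005 and 25.708 CPM, so its 3 lowest libraries were those lowest in gcga. Of that list, ins and mnx1 were listed at 0 in every library, which in this table does not show that islet cells were lacking. Most of the summed level came from pdx1, which the gut epithelium also expresses, and nkx6.2. They averaged 11.6 and 8.20 CPM in WT libraries. Both genes had the same 3 libraries lowest as gcga, so the order of the sum is not a separate observation. The acinar list was at 49281 to 63892 CPM in WT and 39936 to 63512 CPM in il26KO. It was lowest in il26KO replicate 1 and highest in WT replicate 1, both of which were low in gcgb. Whether the amount of islet tissue in a dissection differed was not tested, and gut and islet sources of gcga, gcgb and ghrl cannot be told apart in these counts. The tissue source of the transcription factor, sensory channel and receptor genes with the same 3 libraries lowest as gcga was not tested either.

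**Figure D3:**
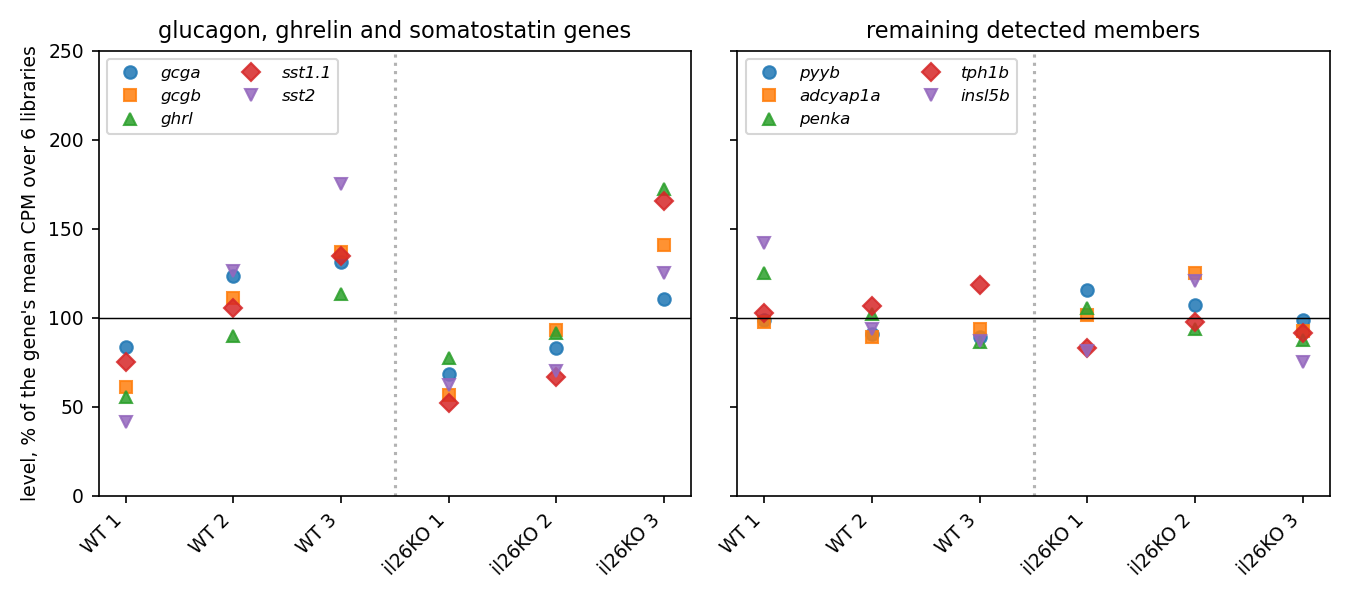
Level of each gene in each library as a percentage of the mean CPM of that gene over the 6 libraries (vertical axis), with the 3 WT libraries left and the 3 il26KO libraries right of the dotted line. In the left panel WT replicate 1, il26KO replicate 1 and il26KO replicate 2 lie below 100% for the 5 genes shown (gcga, gcgb, ghrl, sst1.1 and sst2). WT replicate 3 and il26KO replicate 3 lie above it for these genes. In the right panel WT replicate 3 and il26KO replicate 3 lie below 100% for pyyb, adcyap1a, penka and insl5b. For tph1b they lie at 118% and 91.7%. The other libraries of that panel lie on both sides of 100%. The gene gip, which is not drawn, was at 106% in il26KO replicate 2.

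The insulin-like peptide 5 genes encode relaxin-family hormones, which in mammals come from enteroendocrine cells of the colon. The paralogs differed in detection. A single count of insl5a was found in WT replicate 3 and in il26KO replicate 1, and none in the other 4 libraries. All libraries were thus under the floor of 3 counts, which corresponds to 0.106 to 0.192 CPM, and no fold change was computed. These floors and limits cover counting error. Its paralog insl5b had 74, 54 and 44 counts in WT replicates 1, 2 and 3, or 3.01, 1.99 and 1.84 CPM. It had 38, 40 and 45 counts in il26KO replicates 1, 2 and 3, or 1.73, 2.56 and 1.59 CPM. The groups overlapped. The fitted log2 fold change was -0.25 ± 0.27 (SE; adjusted p = 0.925 by edgeR), with an interval from a 0.549-fold to a 1.29-fold level, and without WT replicate 1 the log2 fold change moved to -0.015. The treatment of reads that match more than 1 gene was not stated, so values of paralogs could depend on it.

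The gene penka encodes proenkephalin, the precursor of opioid peptides. WT replicates 1, 2 and 3 had 98.8, 80.6 and 68.3 CPM (2433, 2189 and 1635 counts). il26KO replicates 1, 2 and 3 had 83.3, 74.1 and 69.1 CPM (1834, 1160 and 1960 counts). All il26KO libraries lay within the range of the WT libraries. Between genotypes the log2 fold change was -0.13 ± 0.14 (SE; adjusted p = 0.926 by edgeR), with an interval from a 0.731-fold to a 1.14-fold level. Without WT replicate 1, the highest library, it was 0.0074.

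In zebrafish, penka and tph1b mark enteroendocrine cells that carry the irritant-sensing channel encoded by trpa1b. The level of trpa1b averaged 7.82 ± 0.433 CPM over WT and 7.18 ± 0.645 CPM over il26KO libraries (SD, n = 3 each), with overlapping libraries and a log2 fold change of -0.12 ± 0.11 (SE; adjusted p = 0.916 by edgeR). The log2 fold changes of penka, tph1b and trpa1b were all negative, and their intervals overlapped. Whether tph1b changed more than penka or trpa1b was not tested.

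The gene adcyap1a encodes PACAP, a neuropeptide that an enteroendocrine subtype of zebrafish also makes. It had 40.0, 36.5 and 38.3 CPM in WT replicates 1, 2 and 3 (985, 990 and 916 counts). It had 41.5, 51.3 and 37.8 CPM in il26KO replicates 1, 2 and 3 (914, 802 and 1072 counts). The WT libraries were close together, with a coefficient of variation of 4.65% against 3.22% from the counts alone, and a single library, il26KO replicate 2, was high. Between genotypes the log2 fold change was 0.18 ± 0.12 (SE; adjusted p = 0.892 by edgeR), with an interval from a 0.944-fold to a 1.37-fold level. Without il26KO replicate 2 it was 0.035.

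Enteric neurons are another possible source of PACAP and enkephalin transcripts. All 17 genes of the enteric neuron list were found and 16 were tested, of which 0 passed the test and 10 were higher in il26KO. Their summed level was 227 to 240 CPM in WT and 234 to 248 CPM in il26KO. The genes vipb, hand2 and ret had log2 fold changes of 0.073, 0.011 and 0.097. The neuronal gene stmn2a was higher, with a log2 fold change of 0.28 ± 0.12 (SE; adjusted p = 0.815 by edgeR, unadjusted 0.0441). The part of enteric neurons in the adcyap1a and penka values was not tested.

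The other genes of the enteroendocrine system also gave 0 calls after adjustment. Of 23 other peptide hormone genes, 18 were found and 13 tested, with 9 higher and 4 lower in il26KO, 0 at an unadjusted p-value below 0.05 and a median log2 fold change of 0.073. The vasoactive intestinal peptide gene vipb was at 49.0 CPM in WT and 51.6 CPM in il26KO, and sst1.1 at 23.4 and 21.1 CPM in the same order. Since vipb is also on the enteric neuron list, it counts in both lists. The gene sst2 averaged 22.7 CPM in WT, with -0.40 ± 0.47 (SE) as its log2 fold change and, like gcgb, a wide spread within each genotype.

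Transcription factors that specify or maintain enteroendocrine cells gave 11 tested genes of 14 found and 16 listed. Of the 11, 7 were higher and 4 lower, with a median log2 fold change of 0.052. The zinc-finger factor gene insm1b was at 15.5 ± 0.664 CPM in WT libraries against 13.6 ± 0.613 CPM in il26KO libraries (SD, n = 3 each), with il26KO below WT in all libraries and a log2 fold change of -0.19 ± 0.084 (SE; adjusted p = 0.847 by edgeR, unadjusted 0.0547). The gene ascl1a, a proneural factor, had a log2 fold change of -0.26 ± 0.13 (SE). The gene fev, a factor of serotonin-producing cells in mammals, had 0.20 ± 0.14 (SE). The broad enteroendocrine factor gene neurod1 was at 7.23 CPM in WT and 6.84 CPM in il26KO, a log2 fold change of -0.087 ± 0.15 (SE). For arxa, all il26KO libraries (1.86 to 2.26 CPM) were above all WT libraries (1.18 to 1.75 CPM). Its log2 fold change was 0.39 ± 0.21 (SE; adjusted p = 0.881 by edgeR, unadjusted 0.105), from 29 to 64 counts per library.

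Genes for hormone processing and secretory granules gave 14 tested of 19 found and 26 listed, with 8 higher, 6 lower and a median log2 fold change of 0.017. Their summed level was 128 to 130 CPM in WT and 126 to 135 CPM in il26KO. The prohormone convertase gene pcsk2, whose product cuts proglucagon and other precursors, was at 8.04, 6.63 and 8.31 CPM in WT replicates 1, 2 and 3. It was at 6.31, 5.56 and 6.63 CPM in il26KO replicates 1, 2 and 3. Its log2 fold change was -0.30 ± 0.13 (SE; adjusted p = 0.826 by edgeR, unadjusted 0.0491), and il26KO replicate 3 was level with WT replicate 2. The genes ptprna, syt1a and cpe, which encode a granule membrane protein, a vesicle calcium sensor and a carboxypeptidase, had log2 fold changes of -0.053, -0.012 and 0.073.

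Serotonin handling genes gave 9 tested of 12 found, with 6 lower, 3 higher and a median log2 fold change of -0.036. The vesicular monoamine transporter gene slc18a2, which loads serotonin into vesicles, had 10, 5 and 9 counts in WT replicates 1, 2 and 3 and 13, 9 and 17 in il26KO replicates 1, 2 and 3. Its log2 fold change of 0.88 ± 0.37 (SE; adjusted p = 0.815 by edgeR, unadjusted 0.0437) was in the opposite direction to that of tph1b and rested on few counts. The serotonin transporter gene slc6a4a was at 29.0 CPM in WT and 28.2 CPM in il26KO, a log2 fold change of -0.036. The genes mao, ddc and qdpra, which encode monoamine oxidase, aromatic amino acid decarboxylase and a cofactor-recycling reductase, had log2 fold changes of -0.17, -0.13 and -0.20. These enzymes are not specific to serotonin cells.

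Sensory channel and receptor genes gave 7 tested of 8 found and 13 listed, with 4 higher and 3 lower. The gene trpm5, a cation channel of chemosensory cells, had 53, 57 and 53 counts in WT replicates 1, 2 and 3 and 96, 32 and 123 in il26KO replicates 1, 2 and 3. The groups overlapped, since il26KO replicate 2, at 2.05 CPM, was below all WT libraries and the other il26KO libraries, at 4.36 and 4.34 CPM, were above them. Its log2 fold change was 0.76 ± 0.27 (SE; adjusted p = 0.717 by edgeR, unadjusted 0.0227). The calcium channel gene cacna1c had a log2 fold change of 0.22 ± 0.15 (SE).

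Receptors and the peptidase for these hormones gave 7 tested of 20 found and 34 listed, with 5 lower and 2 higher. The opioid receptor genes oprm1 and oprd1b, whose products bind enkephalins, had log2 fold changes of -0.16 ± 0.14 and 0.18 ± 0.16 (SE). The gene dpp4, which encodes a brush border peptidase that inactivates incretins, was at 580 ± 72.0 CPM in WT libraries against 489 ± 35.8 CPM in il26KO libraries (SD, n = 3 each), with overlapping libraries and a log2 fold change of -0.25 ± 0.11 (SE; adjusted p = 0.847 by edgeR, unadjusted 0.0535).

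**Figure D4:**
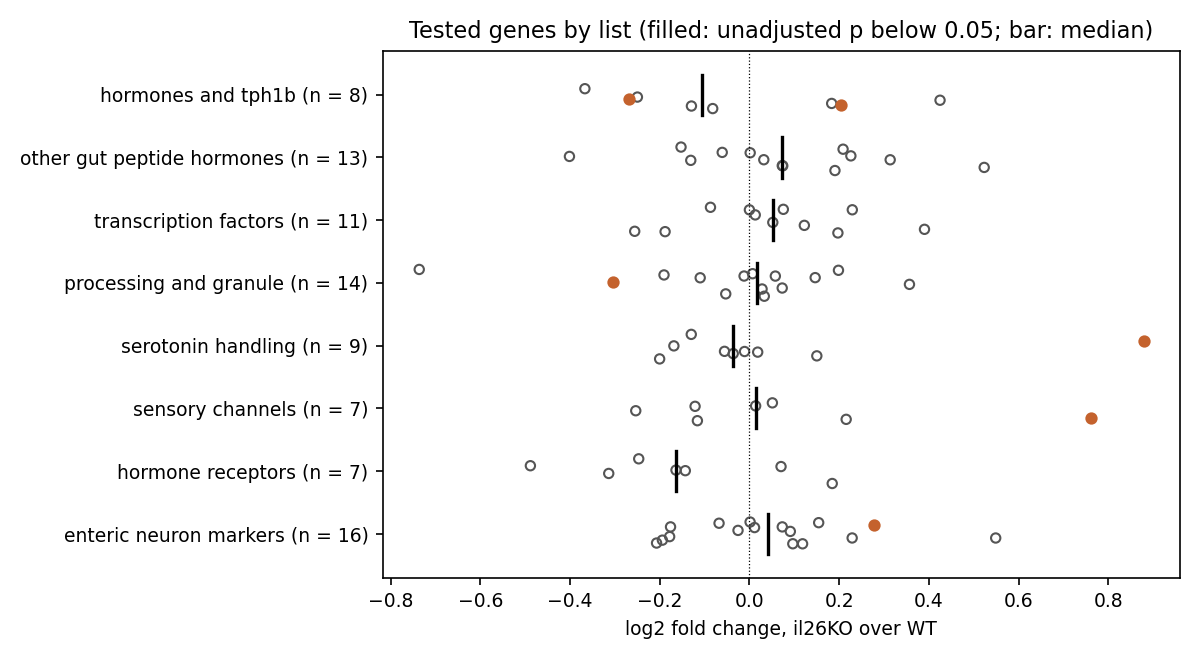
Log2 fold change of il26KO over WT (horizontal axis) of the tested genes of 8 lists, with 1 point per gene, filled where the unadjusted edgeR p-value is below 0.05, and a bar at the median of each list. The medians lie between -0.16 and 0.073, and the filled points on the right at 0.88 and 0.76 are slc18a2 and trpm5. The gene vipb is drawn both with the other gut peptide hormones and with the enteric neuron markers.

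Markers of other epithelial and neighbouring cells were read in the same fit, and 0 of them passed the test after adjustment. Median log2 fold changes were 0.037 over 15 enterocyte genes, 0.064 over 4 goblet and best4 cell genes, -0.25 over 8 liver genes, 0.059 over 9 skeletal muscle genes and -0.045 over 17 acinar genes. The goblet and best4 cell list includes anxa4, which the study's single-cell data also place in enteroendocrine cells and epithelial progenitors. Its log2 fold change was 0.0023 ± 0.099 (SE; adjusted p = 0.999 by edgeR). Of the acinar genes, cela1.3 and cela1.4 were higher and ptf1a lower at an unadjusted p-value below 0.05. The summed liver level was 8304 to 18598 CPM in WT and 10611 to 13710 CPM in il26KO, with the lowest value in WT replicate 1. Skeletal muscle was at 1426 to 3373 CPM in WT and 1617 to 2864 CPM in il26KO. Both lists overlapped between genotypes, and their part in the values of the hormone genes was not tested.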

How the data were processed

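The count table was used as deposited by the authors, with raw counts listed by gene symbol and no normalization. Per the labels, they came from stranded poly(A) libraries with paired 100-bp reads aligned by the authors to danRer11. The counting tool, annotation and treatment of reads matching several genes were not given in the sources used here. Columns were matched to samples by library name, with 0 further per-sample columns. Genes were filtered with filterByExpr by genotype (at least 10 counts, and 15 in total), scaled by TMM and tested with glmQLFit and glmQLFTest in edgeR 4.0.16 (R 4.3.3), two-sided, with Benjamini-Hochberg adjustment over all 11095 tested genes. Adjusted p-values below 0.05 were called. Intervals were 95% intervals from the quasi-likelihood t distribution. Standard errors were the log2 fold change over the square root of F. The fit was tested on simulated counts. Alternatives were RLE factors, other filters, DESeq2 1.42.0, the likelihood ratio test, a replicate block and leaving out each library. Named were the chosen genes and, of the hormone, serotonin, enteroendocrine and enteric neuron lists, the 3 tested genes with the highest mean CPM. Any of their genes with an unadjusted p-value below 0.05 was also named. The same rule was set for the islet, acinar, enterocyte, goblet and best4 cell, liver and skeletal muscle lists. Not all of their genes with the highest mean CPM were named here. Others named (neurod1, arxa, slc6a4a, tph1a, tph2, pyya, gip, ins, mnx1, nkx6.1, 3 low muscle genes, pvalb1, ckmb and those listed for their 3 lowest libraries) were added after their values were seen. Among these, nkx6.1, pdx1, nkx6.2, apoa2 and ckmb also fall under the rule. The genes and lists were chosen with earlier results of these data known. List genes absent by symbol were looked up through RefSeq synonyms (GRCz12tu gene table). For the lists, 3 genes were found under another name.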

Additional observations from a re-analysis of the deposited data

How the results depend on the processing

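The 0 calls among the 8 tested hormone and tph1b genes stayed 0 under every alternative run, with adjusted p-values of 0.536 or more. Of 96 log2 fold changes under alternatives, 92 kept their direction. The 4 that turned all came from leaving out a library, with ranges of -0.47 to 0.18 for gcgb, -0.042 to 0.66 for ghrl and -0.25 to 0.0074 for penka over those fits, and the cause was not tested. The number of genes called over the whole table was 83 with DESeq2, 93 with the likelihood ratio test and 3 to 8 with a library left out, against 12. The number of the 8 genes at an unadjusted p-value below 0.05 was 1 with RLE factors, 1 without the filter on low counts, 0 with DESeq2, 0 with the likelihood ratio test and 0 to 3 with a library left out, against 2. With the replicate block, 2 genes were called over the whole table and 3 of the 8, gcga (0.00935), tph1b and pyyb, had an unadjusted p-value below 0.05. The labels do not say whether same-numbered libraries were paired. Their deviations from the group means correlated at -0.22, -0.11 and 0.15 for replicates 1, 2 and 3, which cannot decide this. In both genotypes gcga, gcgb and ghrl rose from replicate 1 to replicate 3, and penka and pyyb fell. No order shared by both genotypes was seen for adcyap1a, tph1b and insl5b. Mean CPM from unscaled library sizes differed from the TMM value by less than 1 SD for all 9 genes in both genotypes. Low counts limit insl5b most among the 8 genes, where counting error alone gives a coefficient of variation of 13.5% in WT and 15.7% in il26KO. The spread between its libraries was larger, at 27.9% and 26.8%. For each of the 8 genes the spread between libraries exceeded the counting error in both genotypes, narrowly for tph1b.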
